A study of Arabidopsis thaliana with 6 samples.

Results

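The chloroplast-encoded genes were taken as every row of the deposited gene table whose identifier begins with ATCG, the prefix of the Arabidopsis thaliana chloroplast genome, which gave 133 of the 33189 rows. RNA-seq of whole seedlings collected at 7 days gave 3 libraries of tsk-4, a mutant allele of the nuclear gene TONSOKU (TSK), and 3 libraries of the wild-type accession Col; the labels give Col as the ecotype of both genotypes and name no treatment. The wider study set tsk-4 against Col for chromatin marks, DNA methylation and the transcriptome, and TONSOKU itself is a nuclear protein that acts at replicated DNA. How the RNA was selected before library construction is not given in the sources used here, and nothing in the labels says that the 3 libraries of a genotype came from separately grown seedlings, so p-values measure the spread between libraries, which may be technical.

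Chloroplasts keep a small circular genome that encodes the core of the photosynthetic complexes, part of the plastid ribosome, tRNAs, rRNAs and a bacterial-type RNA polymerase. That polymerase, built from the rpoA, rpoB, rpoC1 and rpoC2 products and steered by nuclear-encoded sigma factors, transcribes most photosynthesis genes. A second, phage-type polymerase encoded in the nucleus reads other plastid promoters, among them the one of the rpoB operon, so the plastid-encoded enzyme depends on the nuclear one for its own subunits. Most chloroplast genes lie in clusters that are transcribed together and then cut, spliced and trimmed.

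Of the 133 chloroplast genes, 115 had at least 1 read and 88 passed the filter of at least 1 TPM (a level per gene length, scaled to a fixed library total) in at least 3 of the 6 libraries; the other 45 were not tested. Chloroplast genes took up 4637, 4904 and 4953 reads in the 3 tsk-4 libraries, against 5136, 5136 and 4711 reads in the Col libraries, out of 13732065 to 14950932 reads in the gene table. As a share of all TPM they made up 0.123 ± 0.00284% in tsk-4 and 0.125 ± 0.00733% in Col (SD, n = 3 each), and the libraries of both genotypes overlapped. These shares have no test. In a gene of 1 kb, 1 read was worth 0.149 to 0.164 TPM, and the tested chloroplast genes had a median of 108.5 reads over all 6 libraries, so counting error is large for many of them. TSK averaged 0.903 ± 0.0657 TPM in tsk-4 and 3.62 ± 0.234 TPM in Col (SD, n = 3 each). It was thus lower in the mutant libraries, by a log2 change of -1.55 ± 0.20 (SE; limma adjusted p = 0.000966).

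Sequences are shown for the stretch upstream of the polymerase operon, for the same kind of stretch at a photosynthesis gene, and for the short open reading frames that gave the highest chloroplast level (rpl32) and 2 of the calls (rpl36 and psbI). They come from the RefSeq chloroplast sequence of TAIR10.1, named Pltd there, and are written 5′ to 3′ on the gene's strand. In the upstream stretches capitals mark TTGACA or TATAAT on either strand, the consensus hexamers of bacterial-type promoters, and in the reading frames capitals mark runs of 5 or more A.
rpoB upstream, Pltd:26630-26779, minus strand, 450 to 301 bases before the start codon: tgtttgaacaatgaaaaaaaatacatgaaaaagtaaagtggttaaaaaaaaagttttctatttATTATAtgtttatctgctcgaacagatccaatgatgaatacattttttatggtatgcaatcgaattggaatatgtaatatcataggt
psbA upstream, Pltd:1545-1694, minus strand, 250 to 101 bases before the start codon: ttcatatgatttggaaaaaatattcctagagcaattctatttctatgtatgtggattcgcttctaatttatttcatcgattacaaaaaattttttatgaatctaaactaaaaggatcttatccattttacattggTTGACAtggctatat
rpl32 reading frame, Pltd:113449-113607, plus strand: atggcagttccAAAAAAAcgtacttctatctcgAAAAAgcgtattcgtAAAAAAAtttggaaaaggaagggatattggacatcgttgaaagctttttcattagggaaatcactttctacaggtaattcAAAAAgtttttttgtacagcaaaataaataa
rpl36 reading frame, Pltd:79489-79602, minus strand: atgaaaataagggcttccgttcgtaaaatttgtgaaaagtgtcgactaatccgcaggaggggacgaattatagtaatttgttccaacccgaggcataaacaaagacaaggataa
psbI reading frame, Pltd:7583-7693, plus strand: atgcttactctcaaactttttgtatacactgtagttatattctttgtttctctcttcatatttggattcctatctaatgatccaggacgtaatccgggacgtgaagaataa

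In the 350 bases that end 101 bases before each annotated start, TTGACA was found on either strand at 12 of 85 protein-coding chloroplast genes (14.1%) and TATAAT at 33 of 85 (38.8%), with a window that holds both counted for each. The psbA window held TTGACA on its own strand, and the rpoB window held TATAAT on the opposite strand only. A match describes the letters and is not a mapped promoter. Among 65 tested protein-coding genes, the Spearman correlation across genes between runs of 5 or more A per kb and mean TPM was -0.17, and 45 of the 65 held such a run; genes of 1 genome share libraries and base composition and are not independent.

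The main change among the chloroplast genes was in the plastid-encoded RNA polymerase. Of its 4 subunit genes, 3 were called lower in tsk-4 and none higher, with a median log2 change of -0.56. Of the 88 tested chloroplast genes, 6 were called lower (6.82%, against 4.96% of all 19574 genes tested) and 1 higher (1.14%, against 14.9% of all genes tested). The median log2 change was -0.05 over the tested chloroplast genes and 0.08 over all tested genes. At an unadjusted p under 0.05 there were 13 of the 88, and the share of all genes at that cut was not taken, so this count has no background. Calls are from limma on log2(TPM + 0.5) with an adjusted p under 0.05 over all genes. This fit does not weigh genes by their reads, so the SE of a gene with few reads can be smaller than its counting error. Over all genes, 2912 were called higher and 971 lower on TPM as deposited, but 1802 higher and 1607 lower after median-ratio scaling, so the lean of the background toward higher calls depends on the scaling. The libraries of the genotypes did not overlap for 11 chloroplast genes, of which 3 were higher and 8 lower in tsk-4; that is 12.5% of the tested members, against 37.5% of all genes tested.

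**Figure D1:**
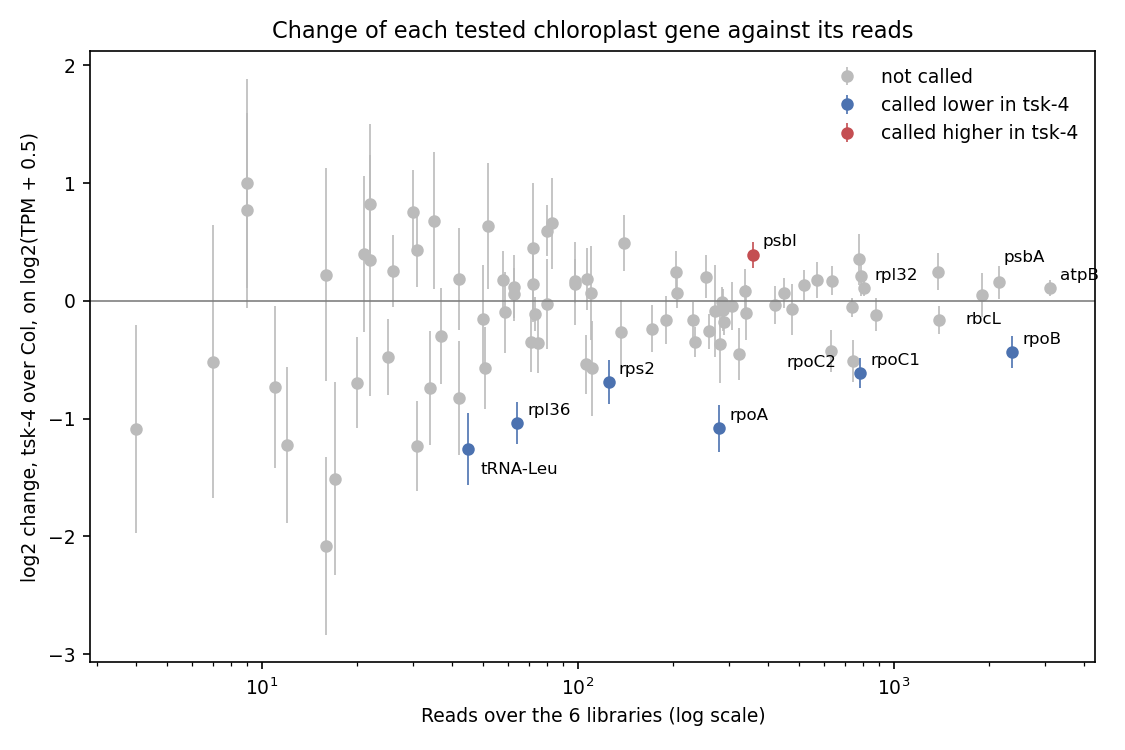
Log2 change (tsk-4 over Col, on log2(TPM + 0.5), vertical axis) of the 88 tested chloroplast genes against their reads summed over 6 libraries (log axis), with bars for 1 SE from limma. The 6 genes called lower lie between -1.26 and -0.43 and the 1 called higher is psbI at 0.39, and genes with few reads have wide bars on both sides of 0.

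rpoA encodes the alpha subunit, on which the bacterial-type enzyme assembles. It measured 3.85, 4.11 and 5.42 TPM in the tsk-4 libraries, against 11.6, 11.5 and 7.29 TPM in the Col libraries, which rests on 25, 26 and 35 reads in tsk-4 and 70, 76 and 47 reads in Col. The lowest Col library stood above the highest tsk-4 library. The log2 change was -1.08 ± 0.20 (SE; limma adjusted p = 0.00617), and it was called with each of the 6 libraries left out in turn.

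rpoB and rpoC1 encode the beta and beta-prime subunits that form the catalytic centre. rpoC1 was at 5.66, 5.25 and 5.58 TPM in tsk-4 and at 9.32, 9.33 and 7.48 TPM in Col, without overlap. Its log2 change of -0.61 ± 0.13 (SE; limma adjusted p = 0.0107) was called with any library left out. rpoB, the most abundant of the 4, was at 16.7, 13.4 and 17.97 TPM in tsk-4 and at 23.1, 23.7 and 18.6 TPM in Col. The nearest libraries of the genotypes, tsk-4 replicate 3 and Col replicate 3, almost touch. Its log2 change was -0.43 ± 0.13 (SE; limma adjusted p = 0.0493). Among the 6 fits that each left out a library, the call held without Col replicate 3 and was lost in the other 5, where the adjusted p reached 0.162.

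rpoC2, which encodes the other part of the split beta-prime subunit, was at 3.66, 3.30 and 4.27 TPM in tsk-4 and at 6.75, 5.57 and 4.42 TPM in Col. Its libraries did not overlap, but with a log2 change of -0.51 ± 0.18 (SE) it was not called in the main fit (limma adjusted p = 0.0793). It was called there without Col replicate 3, the library with the lowest rpoC2 level of its genotype.

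The whole reads behind the TPM could be recovered, which allowed a fit that weighs each gene by its depth. limma-voom on those reads called 4 of 89 tested chloroplast genes lower and none higher, against 8.97% of all genes lower and 9.63% higher in that fit. The 4 were rpoA, rpoB, rpoC1 and rpoC2. Their log2 changes in that fit were -1.24 ± 0.28, -0.53 ± 0.12, -0.74 ± 0.15 and -0.64 ± 0.17 (SE), and the adjusted p-values were 0.00592, 0.0060, 0.00235 and 0.0174. The same 4 were called when libraries were scaled to their chloroplast reads instead, where 3.14% of all genes were called lower and 15.6% higher. rpoA, rpoB and rpoC1 were called lower in this test with each of the 6 libraries left out, while rpoC2 was called only without tsk-4 replicate 3 or Col replicate 3.

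**Figure D2:**
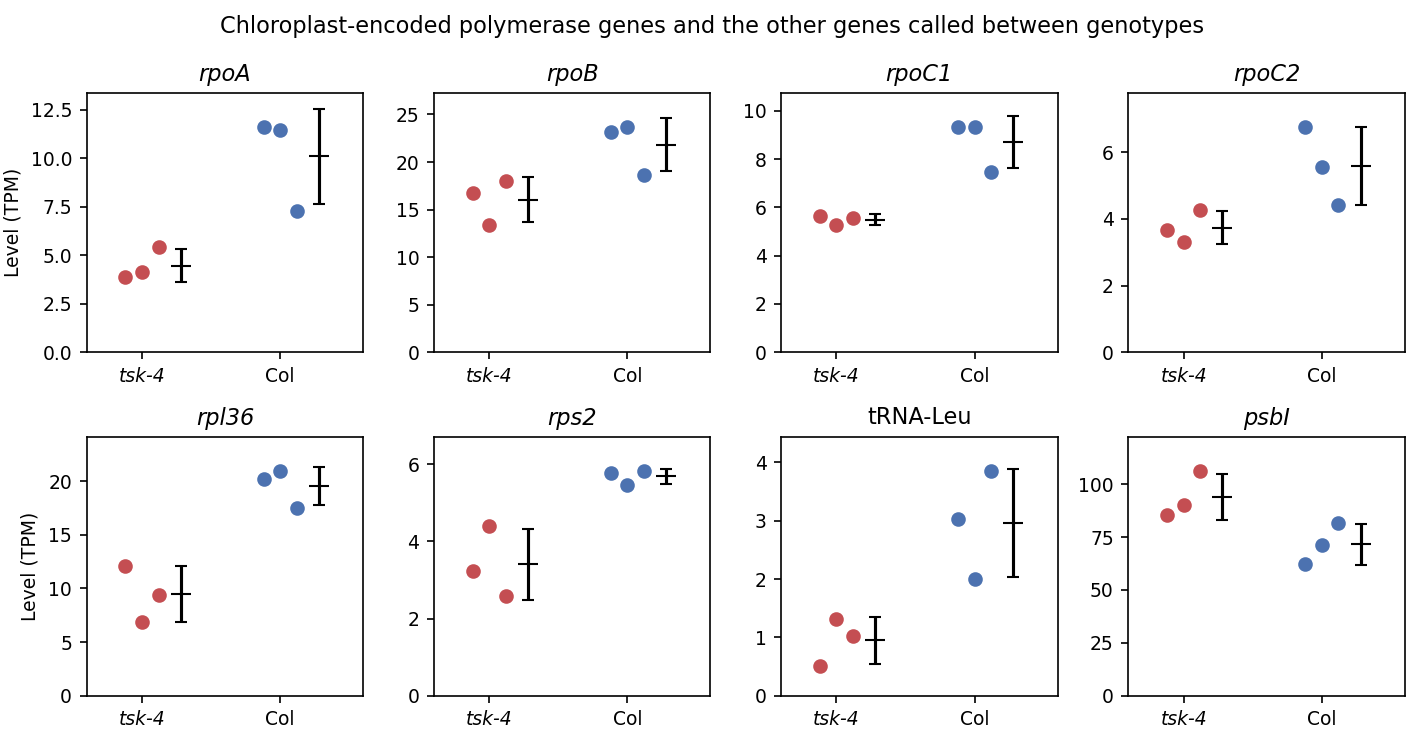
TPM per library (points; 3 tsk-4 at left in red, 3 Col at right in blue) with mean and SD (black) for the 4 polymerase genes and the other 4 genes called between genotypes; vertical axes start at 0 and differ between panels. In the 7 panels other than psbI all tsk-4 points lie below all Col points, and in psbI all lie above.

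As a share of the chloroplast reads, the 4 polymerase genes held 12.6, 9.85 and 12.7% in the tsk-4 libraries and 16.6, 17.9 and 14.7% in the Col libraries, or 1695 of 14494 reads in tsk-4 against 2466 of 14983 in Col. Photosystem II genes held 23.1, 23.04 and 22.05% in tsk-4 and 20.6, 19.9 and 17.98% in Col. Photosystem I genes held 7.02 ± 0.504% in tsk-4 and 5.74 ± 0.551% in Col (SD, n = 3 each). Shares of 1 total depend on each other, and none of these was tested. These shares do not measure the amount of chloroplast RNA. In seedling bulk RNA, that amount cannot be split into the number of plastids or green cells and the RNA per plastid.

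**Figure D3:**
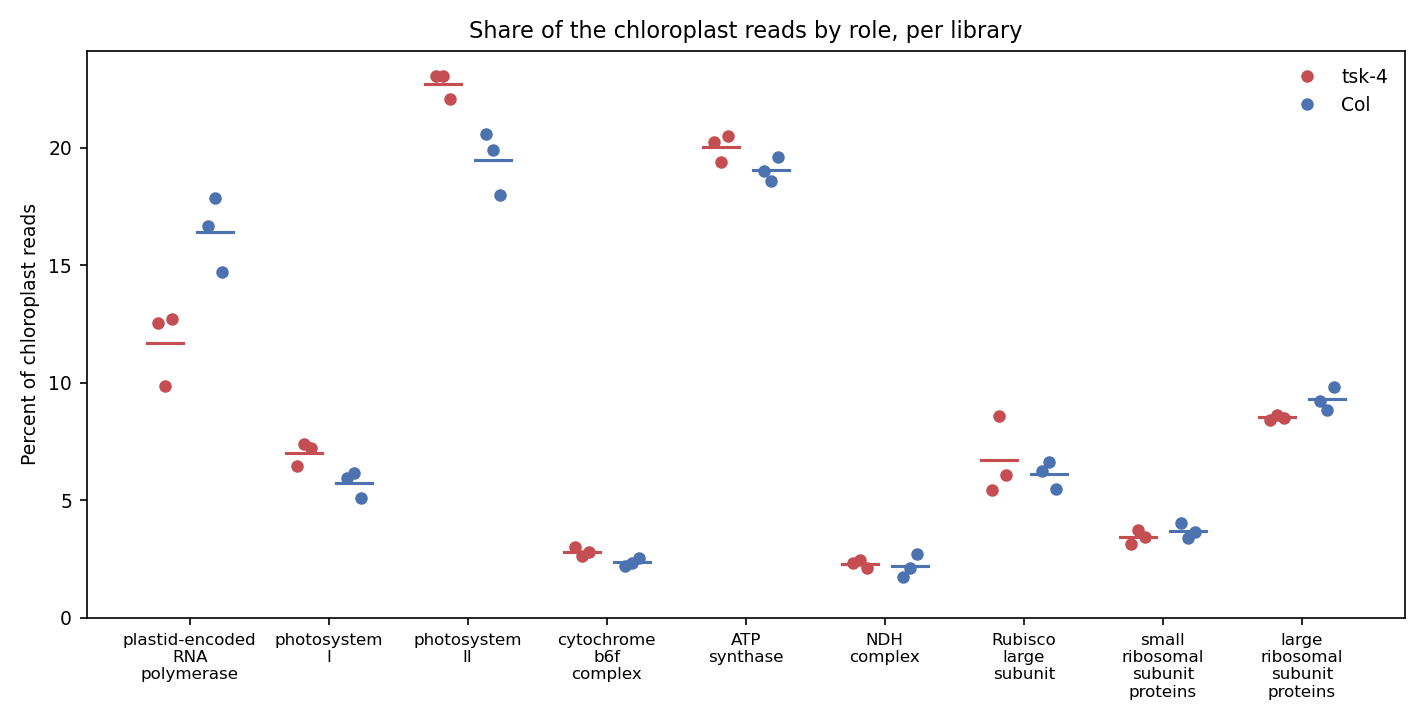
Percent of the chloroplast reads held by genes of each role (horizontal axis), with 1 point per library and a line at the mean, tsk-4 in red at left and Col in blue at right of each pair. The polymerase genes average 11.7% in tsk-4 and 16.4% in Col without overlap, and the photosystem II genes 22.7% in tsk-4 and 19.5% in Col.

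3 of the polymerase genes and the next gene in line stand together on the minus strand. From rpoB the order is rpoC1, rpoC2, rps2, atpI, atpH, atpF and atpA, with gaps of 26, 182, 214, 242, 513, 463 and 67 bases. rpoB, rpoC1 and rpoC2 form 1 operon, and the rps2-to-atpA genes form the next, with promoters of its own. rps2, which encodes a protein of the small ribosomal subunit, was at 3.22, 4.41 and 2.59 TPM in tsk-4 and at 5.77, 5.46 and 5.83 TPM in Col, from 47 reads in all in tsk-4 and 78 in Col. It was called lower with a log2 change of -0.69 ± 0.18 (SE; limma adjusted p = 0.0302). That call was kept without tsk-4 replicate 2 and lost without any other single library (adjusted p up to 0.0925), and limma-voom on reads did not call it (adjusted p = 0.0929).

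The ATP synthase genes farther along had log2 changes of -0.36 for atpI, -0.35 for atpH, 0.13 for atpF and -0.12 for atpA. None of the 4 was called on TPM as deposited with all libraries. atpH, which encodes the ring subunit of the membrane rotor, was nearest to a call with an adjusted p of 0.0951. Genes of 1 unit share transcripts and are not independent.

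rpoA lies at the far end of another cluster, the ribosomal protein operon that begins at rpl23. In the same cluster, rpl36 encodes a very small protein of the large ribosomal subunit and measured 12.1, 6.87 and 9.42 TPM in tsk-4 against 20.2, 21.0 and 17.5 TPM in Col. These levels come from 9, 5 and 7 reads in tsk-4 and 14, 16 and 13 reads in Col, and the genotypes did not overlap. Its log2 change was -1.04 ± 0.18 (SE; limma adjusted p = 0.00437), called with each library left out in turn, while limma-voom on the same reads gave an adjusted p of 0.105. petG, psaI and rps12 rows have the same span of 114 bases as rpl36, so its name rests on its locus number. Farther upstream, rpl14 had a log2 change of -0.45, rpl16 of -0.43, rpl22 of -0.24 and rps3 of -0.18. None of these 4 was called with all libraries. limma-voom gave rpl16 an adjusted p of 0.0579 with all libraries and called it lower without tsk-4 replicate 3.

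**Figure D4:**
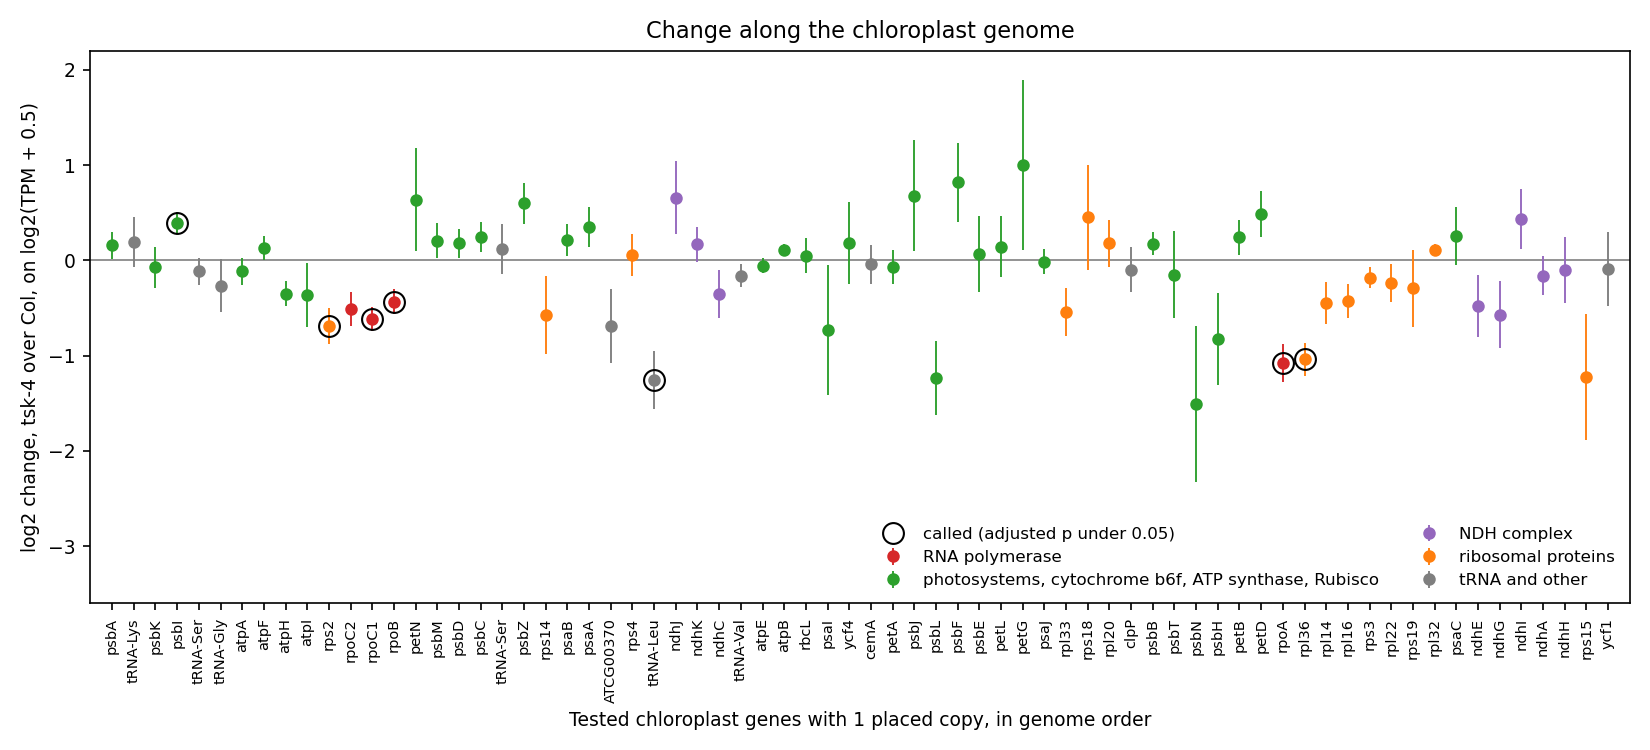
Log2 change (tsk-4 over Col, on log2(TPM + 0.5)) with 1 SE for 70 tested chloroplast genes that have 1 placed copy, in genome order and coloured by role; circles mark the calls. The run rps2, rpoC2, rpoC1, rpoB lies below 0, as do rpoA and rpl36, and psbI is the 1 circled gene above 0.

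Among the genes for the plastid ribosome, calls were few. Of all genes tested, 4.96% were called lower and 14.9% higher. Of 10 tested small-subunit genes, 1 (rps2) was called lower and none higher, with a median log2 change of -0.06. Of 8 tested large-subunit genes, 1 (rpl36) was called lower and none higher, with a median of -0.33 and 5 of the 8 below 0. Uncalled log2 falls of the size of rpoB or larger were those of rpl33 (-0.54), rpl14 (-0.45), rps14 (-0.57) and rps15 (-1.23). Among the uncalled rises, rps18 reached that size too, at 0.45 (limma adjusted p = 0.613). rpl32, a large-subunit gene, had the highest level of all chloroplast genes, at 138, 142 and 125 TPM in tsk-4 and 127, 128 and 122 TPM in Col. The genotypes overlapped, and its log2 change of 0.11 ± 0.06 (SE) was not called (limma adjusted p = 0.28). Its mean of 130 TPM comes from a reading frame of only 159 bases, with 418 reads in the 3 tsk-4 libraries and 385 in the 3 Col libraries.

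Photosystem II, which splits water, was represented by 15 tested genes. Of these, 1 was called higher and none lower, against 14.9% higher and 4.96% lower among all genes tested. The photosystem II gene called higher, psbI, encodes a small subunit next to the reaction centre. It measured 85.3, 90.3 and 106 TPM in tsk-4 and 62.1, 71.3 and 81.6 TPM in Col, from 203 reads in tsk-4 and 154 in Col. The tsk-4 libraries all stood above the Col libraries, with a log2 change of 0.39 ± 0.11 (SE; limma adjusted p = 0.0388). The call was kept without Col replicate 3 and without tsk-4 replicate 1, and was lost without each of the other 4 libraries (adjusted p up to 0.131). Median-ratio scaling and quantile normalization also ended it, and limma-voom gave a log2 change of 0.29 ± 0.20 (SE) with an adjusted p of 0.352.

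None of the larger photosystem II genes was called. psbA, which encodes the D1 reaction-centre protein, was at 51.2, 61.1 and 52.7 TPM in tsk-4 and 60.6, 49.9 and 39.2 TPM in Col, with the genotypes overlapping and a log2 change of 0.16 ± 0.14 (SE). Log2 changes were 0.18 for psbD (the D2 protein), 0.25 for psbC and 0.17 for psbB (the core antenna proteins). psbK averaged 64.8 ± 18.3 TPM in tsk-4 and 67.0 ± 13.2 TPM in Col, and psbM 66.5 ± 7.48 TPM in tsk-4 and 58.9 ± 16.1 TPM in Col (SD, n = 3 each). psbL had 9 reads in tsk-4 and 22 in Col, and with a log2 change of -1.23 ± 0.39 (SE) it was not called in the main fit (limma adjusted p = 0.0531). It was called lower with median-ratio scaling, quantile normalization or a filter of 5 TPM, and without Col replicate 2 or tsk-4 replicate 1. psbH, another uncalled gene, was also called lower without tsk-4 replicate 1. psbD and psbC overlap in the annotation, and psbA and psbD have the same span.

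No gene of photosystem I, the cytochrome b6f complex, ATP synthase or the NDH complex was called in either direction by limma or limma-voom with all libraries and the main scaling of each, and neither was rbcL. Other settings called some of them, namely atpH lower after median-ratio scaling or without Col replicate 2, petG higher without tsk-4 replicate 2, ndhJ higher without tsk-4 replicate 3 and, in limma-voom, atpI lower without Col replicate 3. At an unadjusted p under 0.05 in the limma fit there was 1 gene among them, atpH of ATP synthase. The median log2 change was 0.21 over 5 photosystem I genes, 0.37 over 6 cytochrome b6f genes, -0.09 over 6 ATP synthase genes and -0.13 over 8 NDH genes. psaA and psaB, the reaction-centre pair of photosystem I, had log2 changes of 0.35 ± 0.21 and 0.21 ± 0.17 (SE). psaJ, a small subunit and the most abundant of its class, averaged 54.1 ± 6.11 TPM in tsk-4 and 54.9 ± 10.4 TPM in Col (SD, n = 3 each).

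atpB, the catalytic beta subunit of ATP synthase, was measured at 54.5, 56.0 and 56.6 TPM in tsk-4 and 54.0, 49.3 and 51.5 TPM in Col. All 3 tsk-4 libraries lay above the Col libraries, but the log2 change was 0.11 ± 0.06 (SE; limma adjusted p = 0.27) and its 95% interval ran from -0.04 to 0.25. rbcL, the large subunit of the carbon-fixing enzyme Rubisco, was at 26.7, 45.9 and 32.2 TPM in tsk-4 and 36.7, 35.3 and 27.5 TPM in Col. tsk-4 replicate 2 was the highest of the 6, the genotypes overlapped, and the log2 change of 0.05 ± 0.18 (SE) changes sign with the scaling. petD, which encodes subunit IV of cytochrome b6f, was the other uncalled gene whose tsk-4 libraries all lay above Col, with a log2 change of 0.49 ± 0.24 (SE; limma adjusted p = 0.19). The most abundant gene of the remaining complexes was petL for cytochrome b6f, at 22.3, 22.8 and 14.4 TPM in tsk-4 and 30.8, 15.6 and 11.2 TPM in Col. For the NDH complex it was ndhC, at 3.78, 3.45 and 5.92 TPM in tsk-4 and 7.69, 4.11 and 5.50 TPM in Col; both overlapped between genotypes.

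A missed call does not show equal levels. Of the 81 tested chloroplast genes that were not called, 49 had a 95% interval of the log2 change within 1 unit of 0 and 16 had one within 0.5 units. The median half-width of the interval was 0.55. Changes of the size seen in rpoB would therefore not be detectable at this depth for many of the other members.

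Of 3 tested genes with other roles and ycf4, which helps to assemble photosystem I, none was called. cemA, an envelope membrane protein gene, was at 13.9, 8.17 and 12.01 TPM in tsk-4 and 14.03, 9.09 and 11.8 TPM in Col, so the genotypes overlapped. clpP, which encodes a protease subunit, had a log2 change of -0.10 ± 0.24 (SE). ycf4 was near 3 to 10 reads per library, with a log2 change of 0.19 ± 0.43 (SE).

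Among the 15 tested tRNA rows, 1 was called lower and none higher, against 4.96% lower and 14.9% higher among all genes tested. That row, ATCG00400, has the span of 597 bases of an intron-containing tRNA-Leu gene and held 2, 5 and 4 reads in tsk-4 against 11, 8 and 15 reads in Col. The levels were 0.511, 1.31 and 1.03 TPM in tsk-4 and 3.02, 2.001 and 3.86 TPM in Col, without overlap, and the log2 change was -1.26 ± 0.31 (SE; limma adjusted p = 0.0203). The call was lost without Col replicate 1, Col replicate 3 or tsk-4 replicate 1 (adjusted p up to 0.0653), and limma-voom gave 0.0642. An intron-containing tRNA-Val row was the most abundant tRNA, with 43.5, 58.0 and 49.2 TPM in tsk-4 and 54.6, 50.1 and 63.6 TPM in Col. It was not called.

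The chloroplast genome carries an inverted repeat, found here as 2 identical copies of 26264 bases at Pltd:84171-110434 and Pltd:128215-154478, which hold 31 annotated genes in full. Reads from identical copies cannot be assigned to 1 of them, and how the authors treated such reads is not given in the sources used here. Both 16S rRNA rows held 32 to 48 reads per library and both 23S rRNA rows 44 to 81. rpl2, in contrast, was counted unequally between its copies. The ATCG01310 row held 74, 78 and 78 reads in tsk-4 and 60, 76 and 83 reads in Col, while the ATCG00830 row held 3, 3 and 0 reads in tsk-4 and 0, 2 and 3 reads in Col. Rows for rpl23, ycf2, rps7, tRNA-Ile and tRNA-Ala in the repeat held at most 3 reads in any library. The 16S rRNA row ATCG00920 averaged 4.07 ± 0.579 TPM in tsk-4 and 4.94 ± 0.302 TPM in Col (SD, n = 3 each), and none of the 4 tested rRNA rows was called.

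The nuclear partners of the polymerase included members called lower. Of 20 listed genes for sigma factors, phage-type polymerases and polymerase-associated proteins, 7 were called lower and none higher, against 4.96% lower and 14.9% higher among all genes tested, with a median log2 change of -0.08. PTAC2 (AT1G74850), a protein of the transcriptionally active plastid chromosome, averaged 40.1 ± 0.555 TPM in tsk-4 and 49.1 ± 1.94 TPM in Col (SD, n = 3 each). Its log2 change was -0.29 ± 0.06 (SE; limma adjusted p = 0.0145), called with each library left out. SCA3 (AT2G24120), the plastid-targeted phage-type polymerase, was at 13.4, 13.5 and 12.98 TPM in tsk-4 and 17.97, 16.04 and 19.1 TPM in Col. Its log2 change was -0.40 ± 0.09 (SE; limma adjusted p = 0.0179), and the call was lost without Col replicate 1, tsk-4 replicate 1 or tsk-4 replicate 3 (adjusted p up to 0.0644). SCA3 overlaps the neighbouring gene AT2G24110 in the annotation. With 1 library left out in turn, the sigma factor genes SIG2 and SIG6 kept their calls in 3 and 2 of the 6 fits. The remaining genes called lower, PTAC14, TRXz and MURE, kept theirs in 0. limma-voom called 8 of the 20 lower and none higher, against 8.97% lower and 9.63% higher among all genes in that fit. There, PTAC2, SCA3, SIG2, SIG6, PTAC14, TRXz and MURE kept their calls in all 6 fits with 1 library left out, and PTAC10 in 2. Whether the lower SCA3 level bears on the rpo genes was not tested.

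Of 18 listed nuclear genes for maturation and decay of plastid RNA, 7 were called lower and 1 higher, beside the same shares of all genes tested, with a median log2 change of -0.22. The higher gene was AT3G46610, annotated as a pentatricopeptide repeat protein of the family that binds organelle RNA. It averaged 41.8 ± 5.202 TPM in tsk-4 and 22.1 ± 0.535 TPM in Col (SD, n = 3 each), with a log2 change of 0.89 ± 0.10 (SE; limma adjusted p = 0.000411), and it overlaps the neighbouring gene AT3G46600. CSP41A (AT3G63140), an RNA-binding protein that associates with plastid transcripts, averaged 423 ± 17.3 TPM in tsk-4 and 544 ± 17.1 TPM in Col (SD, n = 3 each). Its log2 change was -0.36 ± 0.05 (SE; limma adjusted p = 0.00213). CSP41A overlaps RANGAP1 and AT3G09905 in the annotation. With 1 library left out in turn on TPM, MRL1 and PGR3 kept their lower calls in 1 of the 6 fits each and BFA2 in 0. The other genes called in this list kept theirs in all 6. limma-voom called 13 of the 18 lower and 1 higher, against 8.97% lower and 9.63% higher among all genes in that fit.

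The nuclear RBCS genes, whose products join the rbcL product in Rubisco, were all 4 called lower, against 4.96% of all genes tested. Their median log2 change was -0.43, and rbcL was not called. RBCS1B averaged 734 ± 34.2 TPM in tsk-4 and 1039 ± 33.4 TPM in Col (SD, n = 3 each; log2 change -0.50 ± 0.05, SE, limma adjusted p = 0.000402), and RBCS3B had a log2 change of -0.47 ± 0.07 (SE). The RBCS copies are near-identical in sequence, so reads may be split between them. Whether the RBCS changes differ from that of rbcL was not tested.

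Levels of green-tissue markers moved with genotype as well. Of 10 such markers, 9 were called lower, against 4.96% of all genes tested. Their summed level was 79059 to 81241 TPM in tsk-4 and 102602 to 104070 TPM in Col. All 10 are nuclear genes for photosynthesis proteins, and RBCS1A is also among the RBCS genes above. LHCB1.2 and LHCB1.1, near-identical antenna protein genes, had log2 changes of -0.57 ± 0.07 and -0.40 ± 0.05 (SE). Of 13 root markers, 2 were called higher, a share near the 14.9% of all genes tested, and none lower, while limma-voom called the same number higher and 1 lower (CASP1, adjusted p = 0.0262). The 2 were PRP3 and EXPA18, with log2 changes of 0.44 ± 0.08 and 0.54 ± 0.11 (SE; limma adjusted p of 0.00644 and 0.00824). Root markers summed to 251 to 291 TPM in tsk-4 and 242 to 256 TPM in Col, and no marker of either list was at 0 in all libraries. The part of tissue makeup in the rpo levels was not tested. Scaled to the chloroplast reads of each library, the log2 changes were -1.10 for rpoA, -0.39 for rpoB, -0.60 for rpoC1 and -0.51 for rpoC2. These 4 genes averaged 11.7% of those reads in tsk-4 and 16.4% in Col. The scaling is therefore not a test of tissue makeup.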

How the data were processed

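Libraries were made from total RNA of 7-day seedlings with a NEBNext Ultra kit, per the labels' protocols. How the RNA was selected is not given, so the levels are those of the chloroplast RNA that remained after any such step. The part of that step in the levels and log2 changes was not tested. The authors deposited a gene table in TPM with every library summing to 1000000. The submitters' processing notes name DESeq2 1.26.0, HTSeq 0.11.2, HISAT2 and fastp 0.20.1, and TAIR10 as the genome build, without their roles or settings. Strand use and the treatment of multi-mapped reads are not given. TPM values times full gene span were whole multiples of 1 read (tolerance 0.02) for 100% of nuclear values, which gave read counts per library.

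No source used here pairs ATCG identifiers with names. Names come from standard locus nomenclature and were kept where the TAIR10.1 span of that gene gave whole reads in every library (tolerance 0.005): 48 rows fit no other gene, 20 also fit longer genes, 9 share their span with another gene and 1 also fits a shorter one. tRNA and rRNA rows were named where 1 product fits (14 rows). The other 16 tRNA rows with shared spans, 7 unmatched rows and 18 rows without reads are given by identifier.

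limma 3.58.1 (R 4.3.3) with a mean-variance trend was fitted on log2(TPM + 0.5), genes with at least 1 TPM in at least 3 libraries, genotype as the only term, Benjamini-Hochberg adjustment over 19574 genes and an adjusted p under 0.05 as the rule for a call. Each log2 change is tsk-4 over Col on this scale, where changes of low genes are understated. limma-voom used genes with at least 10 reads over 6 libraries and median-ratio factors. Scripts were tested on simulated data. Summaries and figures were made in Python 3.11.15 (pandas 2.3.3, SciPy 1.17.1, matplotlib 3.10.9, NumPy 2.4.6). Members and lists were chosen with earlier results of these data known. Full values are given for TSK, the 5 chloroplast genes with the highest mean TPM, in each class up to 2 called members taken by adjusted p, or else its most abundant member, the 8 largest called rises and falls, and 2 genes per nuclear list; rpoC2, psbA, psbL, petD, clpP, tRNA-Val and the copies of rpl2 were added after their values were seen. No mitochondrion-encoded (ATMG) row is in the table used here, so the planned comparison with that genome is not analysed here. Values of 2 chloroplast genes are not reported here, though both count among the members tested.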

Additional observations from a re-analysis of the deposited data

How the results depend on the processing

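The count of chloroplast genes called lower was 4 to 8 under the alternatives that kept all libraries, against 6, and 3 to 6 with 1 library left out (the fewest without Col replicate 1; 3 to 5 for limma-voom, an alternative of leaving out libraries chosen after seeing the data). rpoA and rpoC1 were called lower under every alternative tried, and rpoB was lost, among those with all libraries, with a pseudocount of 0.1, with no filter and with the replicate block. The count called higher was 0 with median-ratio scaling, quantile normalization, limma-voom, limma-voom scaled to chloroplast reads (chosen after seeing the data) or no filter, and 0 to 1 with a library left out. Without Col replicate 1, tsk-4 replicate 2 or tsk-4 replicate 3 the 1 gene called higher was psbZ, petG or ndhJ in place of psbI. Over all genes, 1802, 1706 and 2094 were called higher and 1607, 1655 and 1950 lower with median-ratio scaling, quantile normalization and limma-voom. With a library left out these were 1798 to 3364 higher (most without Col replicate 3) and 507 to 1170 lower.

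Alternatives were recomputed gene by gene for 19 genes, of which 7 were called and 12 were not. None of the 7 changed sign, while 8 of the 12 did. The log2 change of rbcL was -0.0405, -0.0604 and -0.0439 with median-ratio scaling, quantile normalization and limma-voom, that of rpl32 was -0.00974 with quantile normalization, and those of cemA and psaJ were 0.0115 and 0.0524 with limma-voom scaled to chloroplast reads. With a library left out, the log2 change ranged from -0.24 to 0.19 for psbK, -0.0335 to 0.369 for psbM, -0.16 to 0.22 for rbcL, -0.17 to 0.61 for ycf4, -0.20 to 0.17 for cemA, -0.17 to 0.54 for petL and -0.14 to 0.13 for psaJ. The cause was not tested.

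Same-numbered libraries did not deviate together (correlations of 0.115, -0.0868 and -0.109). The largest correlation was 0.248, between tsk-4 replicate 2 and Col replicate 3. With 3 libraries per genotype, such correlations cannot exclude that the numbers pair the samples. With the replicate number as a block, 1 chloroplast gene was called higher and 6 lower (rpoC1, rpoA, rpl36 and tRNA-Leu were kept, rpoB and rps2 (adjusted p = 0.0538) were lost, and psbL and ATCG00610 were gained), and 2310 and 750 genes over the whole table. The summed chloroplast share, as tsk-4 over Col, stayed between 0.962 and 1.02 with a library left out. Recovered reads of rows matched by name rest on the span of that gene. Those of tRNA and rRNA rows rest on the shortest reference span that fits. Reads of unmatched rows rest on the smallest span tried that gives whole reads, and may be too low. Rows of tRNA genes with shared spans cannot be named.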
